A study of Mus musculus with 14 samples.

Results

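The 10 genes described here are Krt76, Krt4, Krt13, Gcnt3, Sptssb, Ces1h, Glyat, Spink12, Fgf3 and Dynap, out of 56953 genes counted in mouse skin. Of these, 8 were chosen because their counts were near 0 in Cre-negative skin with DMSO and high in knockout skin with DMSO. The other two, Krt4 and Krt13, were added by name as keratins of mucosal epithelium. The rule set no numeric threshold, so there are no values just inside or outside one. Since those 2 groups chose the genes, their values are given as a description with no test, as is every other comparison that uses either of them. The name "mucosal-type genes on in knockout skin" did not hold for the whole set: Krt4 was detected in every library with overlapping groups, and Krt13 had at most 2 reads in any library.

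RNA was measured in 14 libraries of skin from mice of 3 genotypes. These were wild-type C57BL/6J mice, NEDD8fl/fl mice without the K14-CreERT transgene (Cre-negative) and NEDD8fl/fl mice that carry it (knockout). Each genotype received either DMSO (2 wild-type, 3 Cre-negative and 3 knockout libraries) or Aldara cream with 5% imiquimod, applied daily from day 0 to day 7 (2 libraries of each genotype). The cream went on shaved back skin or on the right ear, and the site of each library is not given in the sources used here. K14-CreERT is active in keratinocytes that use the keratin 14 promoter, once induced, so other skin cells of the knockout mice should keep the gene. The labels do not say that Cre-negative or wild-type mice received the inducing drug, nor do they name the animal behind a library, so p-values measure the spread between these samples. In bulk skin, more cells of a type and more RNA per cell cannot be told apart.

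As background, NEDD8 is a ubiquitin-like protein whose attachment to cullins activates the cullin-RING ubiquitin ligases, which mark many regulatory proteins for degradation. Imiquimod activates Toll-like receptor signalling and gives mouse skin a psoriasis-like inflammation. Keratins are made in pairs that follow the kind of epithelium: Krt1 and Krt10 in cornifying epidermis, Krt4 and Krt13 in the soft lining of mouth and oesophagus, Krt76 in the gingiva and hard palate, and Krt8 and Krt18 in single-layered epithelia. Gcnt3 builds branched O-glycans on mucins. Glyat and carboxylesterases are better known from liver and kidney than from mucosa, so the 10 genes do not belong to 1 tissue programme by their usual sites of expression.

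Total counts ran from 5552954 to 34362477 per library. Ribosomal Rn18s-rs5 took 17.46% of counts (Wilson 95% interval 17.42 to 17.49) in knockout DMSO replicate 1 and 19.06% (19.05 to 19.08) in Cre-negative imiquimod replicate 2, against 3.84% to 9.91% in the other 12 libraries. Nedd8 itself was at 226 ± 129 CPM (CPM are read counts scaled to the library's size with TMM factors; SD, n = 3) in knockout DMSO skin and 313 ± 39.9 (n = 3) in Cre-negative DMSO skin, with ranges of 147 to 374 and 289 to 359. With imiquimod it was at 150.3 and 308 CPM in knockout and 314 and 461 CPM in Cre-negative libraries. The wild-type libraries had 203 and 269 CPM with DMSO and 376 and 684 with imiquimod. Its log2 difference was -0.47 ± 0.40 (SE; adjusted p = 0.40, edgeR quasi-likelihood test), and with imiquimod it was -0.76 ± 0.50 (adjusted p = 0.33), so a loss of Nedd8 was not detectable; a 3′ tag may lie outside the deleted part, and cells other than keratinocytes contribute. By Xist and 4 Y-linked genes, all 4 libraries of Cre-negative and knockout imiquimod skin were male, while 2 of 3 Cre-negative DMSO libraries were male and all knockout DMSO and wild-type libraries were female. In the female Cre-negative DMSO library, replicate 3, the 8 genes chosen by value stood between 0 and 0.0728 CPM. The choice of genes used that library, so its low values follow from the choice and nothing about sex is read from them.

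The keratin that came on was Krt76, a type II keratin of the gingiva and hard palate (GRCm39 chr15:101792786-101801355, minus strand). It was at 24.2, 12.8 and 10.1 CPM in knockout DMSO replicates 1, 2 and 3, and at 2.36 and 10.1 CPM in the knockout imiquimod libraries. Among the 9 other libraries it had reads in 2, at 0.0494 CPM (wild-type DMSO replicate 2) and 0.134 CPM (Cre-negative imiquimod replicate 2). All 5 knockout libraries were above all others, and the knockout DMSO mean was at least 261-fold above the floor of 3 counts over the Cre-negative DMSO group.

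Krt4 (chr15:101826970-101833170, minus strand), the type II keratin of oesophagus and oral lining, lies 25615 bases from Krt76 and did not follow it. Its levels were 37.7, 4.85 and 3.69 CPM in knockout DMSO skin against 7.43, 5.96 and 6.48 in Cre-negative DMSO skin. In the imiquimod groups it was at 11.1 and 5.04 CPM in knockout, 6.88 and 30.4 in Cre-negative and 13.6 and 4.83 in wild-type skin, and wild-type DMSO skin had 8.62 and 2.86. By mean level the order was Cre-negative imiquimod, knockout DMSO, wild-type imiquimod, knockout imiquimod, Cre-negative DMSO and wild-type DMSO, and every pair of neighbours in that order overlapped. The highest 2 values, 37.7 and 30.4 CPM, came from the 2 libraries with the highest ribosomal share; the part of that share in the Krt4 level was not tested.

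**Figure D1:**
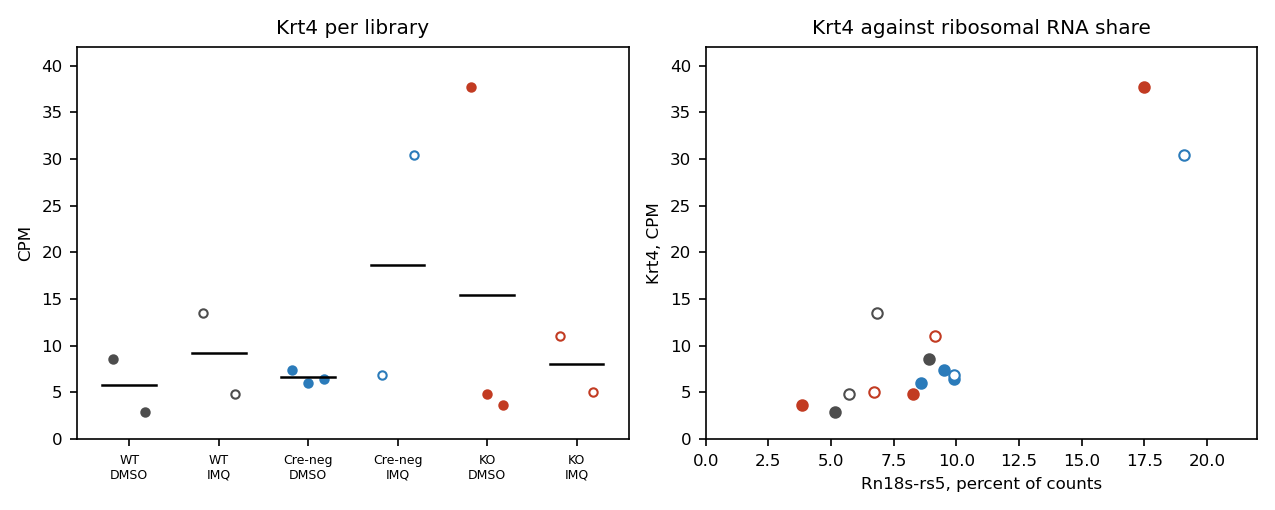
Krt4 in CPM by group (left; dots are libraries, bars are group means) and against the percent of counts on Rn18s-rs5 (right; 1 dot a library, grey wild type, blue Cre-negative, red knockout, filled DMSO, open imiquimod). The knockout DMSO library at 37.7 CPM and the Cre-negative imiquimod library at 30.4 CPM are the 2 with the highest ribosomal share; the other 12 lie between 2.86 and 13.6 CPM.

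Krt13 (chr11:100008153-100012392, minus strand), the type I partner of Krt4, was nearly silent everywhere. It had 0 reads in all wild-type DMSO and Cre-negative imiquimod libraries, 1 read in wild-type imiquimod and in knockout DMSO skin, 4 in Cre-negative DMSO and 3 in knockout imiquimod skin, and was too low to test. At these counts no difference between groups was detectable.

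The promoters of the keratin that came on and of the one that stayed silent are shown for comparison, as the 250 bases before the annotated start in RefSeq on GRCm38.p6, with motif matches in capitals. The 4 motifs searched on both strands were the TATA box TATAAA, the AP-1 motif TGANTCA, the antioxidant response element core TGACNNNGC and the ETS motif GGAAGT. Of 32851 promoter windows of that length, 12.4%, 6.75%, 10.2% and 19.7% hold them. A TGACTCA followed by GC would match both the AP-1 and the antioxidant motif.
Krt76, chr15:101892921-101893170, minus strand: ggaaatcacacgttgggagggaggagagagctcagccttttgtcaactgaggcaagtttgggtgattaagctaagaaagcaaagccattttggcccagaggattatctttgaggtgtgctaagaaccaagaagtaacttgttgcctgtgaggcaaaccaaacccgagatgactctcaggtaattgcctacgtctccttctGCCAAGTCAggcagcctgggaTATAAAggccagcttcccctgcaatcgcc
Krt13, start site 1, chr11:100121567-100121816, minus strand: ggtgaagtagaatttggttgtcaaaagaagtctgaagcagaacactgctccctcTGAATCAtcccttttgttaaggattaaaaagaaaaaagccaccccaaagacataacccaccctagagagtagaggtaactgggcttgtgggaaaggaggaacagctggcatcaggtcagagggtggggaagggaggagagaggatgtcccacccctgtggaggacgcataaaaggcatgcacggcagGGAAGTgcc
The Krt76 window holds TATAAA starting 29 bases before the start and, on the opposite strand, a match to TGACNNNGC at 50 bases. The Krt13 window holds an AP-1 match at 196 bases and an ETS match at 9 bases, and its start site 2 holds AP-1 matches at 183 and 34 bases. A motif match is a description of these letters and not a binding site.

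Gcnt3 (chr9:69938778-69945370), which adds the branching N-acetylglucosamine of core 2 and core 4 O-glycans on mucins, had 0 reads in all 9 libraries that were not knockout. In knockout skin it was at 10.2, 21.04 and 8.87 CPM with DMSO and at 15.7 and 38.7 CPM with imiquimod. The DMSO mean was at least 223-fold above the Cre-negative floor and at least 135-fold above the wild-type floor. The knockout DMSO and imiquimod ranges overlapped.

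Sptssb (chr3:69726875-69767273), a small subunit that shifts serine palmitoyltransferase towards longer acyl chains at the first step of sphingolipid synthesis, was at 10.7, 26.2 and 15.4 CPM in knockout DMSO and 7.14 and 36.8 CPM in knockout imiquimod skin. It had 0 reads in the Cre-negative DMSO libraries and 0.143 and 0.471 CPM in Cre-negative imiquimod skin. It was the 1 gene of the 8 with a sizeable level in a wild-type DMSO library: replicate 2 had 48 reads, 2.37 CPM, against 0.10 CPM in replicate 1. In wild-type imiquimod skin it was at 0.0941 and 0.156 CPM.

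Ces1h (chr8:94078471-94106353), a carboxylesterase of a gene cluster that hydrolyses esters and amides, had 0 reads in all 9 libraries that were not knockout. It was at 14.8, 14.7 and 6.79 CPM in knockout DMSO skin and at 2.43 and 5.31 CPM in knockout imiquimod skin. The imiquimod libraries were below all DMSO ones in the knockout, and among all 16027 genes tested 18.9% had knockout imiquimod libraries below all knockout DMSO ones. The knockout DMSO libraries were female and the knockout imiquimod ones male, so sex and imiquimod cannot be told apart there.

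Glyat (chr19:12610672-12631275), the mitochondrial enzyme that joins glycine to acyl groups, was at 69.7, 48.4 and 29.6 CPM in knockout DMSO skin and at 17.5 and 45.8 CPM in knockout imiquimod skin. In Cre-negative DMSO skin it was at 0, 0.109 and 0 CPM, and in wild-type DMSO skin at 0 and 0.148. With imiquimod it was at 2.49 and 0.545 CPM in wild-type and at 0.287 and 0.336 CPM in Cre-negative skin. Its RefSeq promoter window on GRCm38.p6 is shown because it is the window among the 6 with entries that holds 2 AP-1 matches at 1 start site of a gene that was on.
Glyat, chr19:12633058-12633307, plus strand: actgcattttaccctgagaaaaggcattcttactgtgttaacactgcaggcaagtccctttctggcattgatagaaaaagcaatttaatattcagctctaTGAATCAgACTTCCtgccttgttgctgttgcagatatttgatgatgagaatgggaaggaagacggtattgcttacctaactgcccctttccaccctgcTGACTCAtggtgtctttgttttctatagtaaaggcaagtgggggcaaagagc
The AP-1 matches start 150 and 52 bases before the start and an ETS match lies on the opposite strand at 142 bases. Of the other windows, Ces1h has a TATA match on the opposite strand at 76 bases, Sptssb an ETS match at 224 bases, and Fgf3 has none of the 4 motifs in these 250 bases.

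Spink12, a Kazal-type serine protease inhibitor on chromosome 18, was at 49.4, 33.6 and 55.9 CPM in knockout DMSO skin and at 11.9 and 25.0 CPM in knockout imiquimod skin. With DMSO it had no read in any Cre-negative library and 0 and 0.198 CPM in wild-type ones. With imiquimod it was at 9.89 and 5.92 CPM in Cre-negative and at 2.68 and 1.09 CPM in wild-type skin, the only 1 of the 8 genes with more than 5 CPM in a library that was not knockout. The order of means was knockout DMSO, knockout imiquimod, Cre-negative imiquimod and wild-type imiquimod, with no overlap between neighbours, then wild-type DMSO and Cre-negative DMSO, which overlapped.

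Fgf3 (chr7:144392332-144398173), a fibroblast growth factor used in development of the inner ear and active on epithelial Fgfr2, was at 125, 17.7 and 54.3 CPM in knockout DMSO and 13.3 and 20.2 CPM in knockout imiquimod skin. Wild-type imiquimod libraries had 4.14 and 0.234 CPM, Cre-negative imiquimod libraries 0.287 and 0.807, and Cre-negative DMSO libraries 0.0558, 0.0547 and 0.0728. Wild-type DMSO libraries had 0.10 and 0 CPM.

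Dynap, a dynactin-associated protein gene on chromosome 18, was at 54.7, 5.24 and 20.2 CPM in knockout DMSO and 18.7 and 22.5 CPM in knockout imiquimod skin. It had 0 reads in all 9 other libraries. Thus 3 genes, Gcnt3, Ces1h and Dynap, were at 0 in every library that was not knockout.

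**Figure D2:**
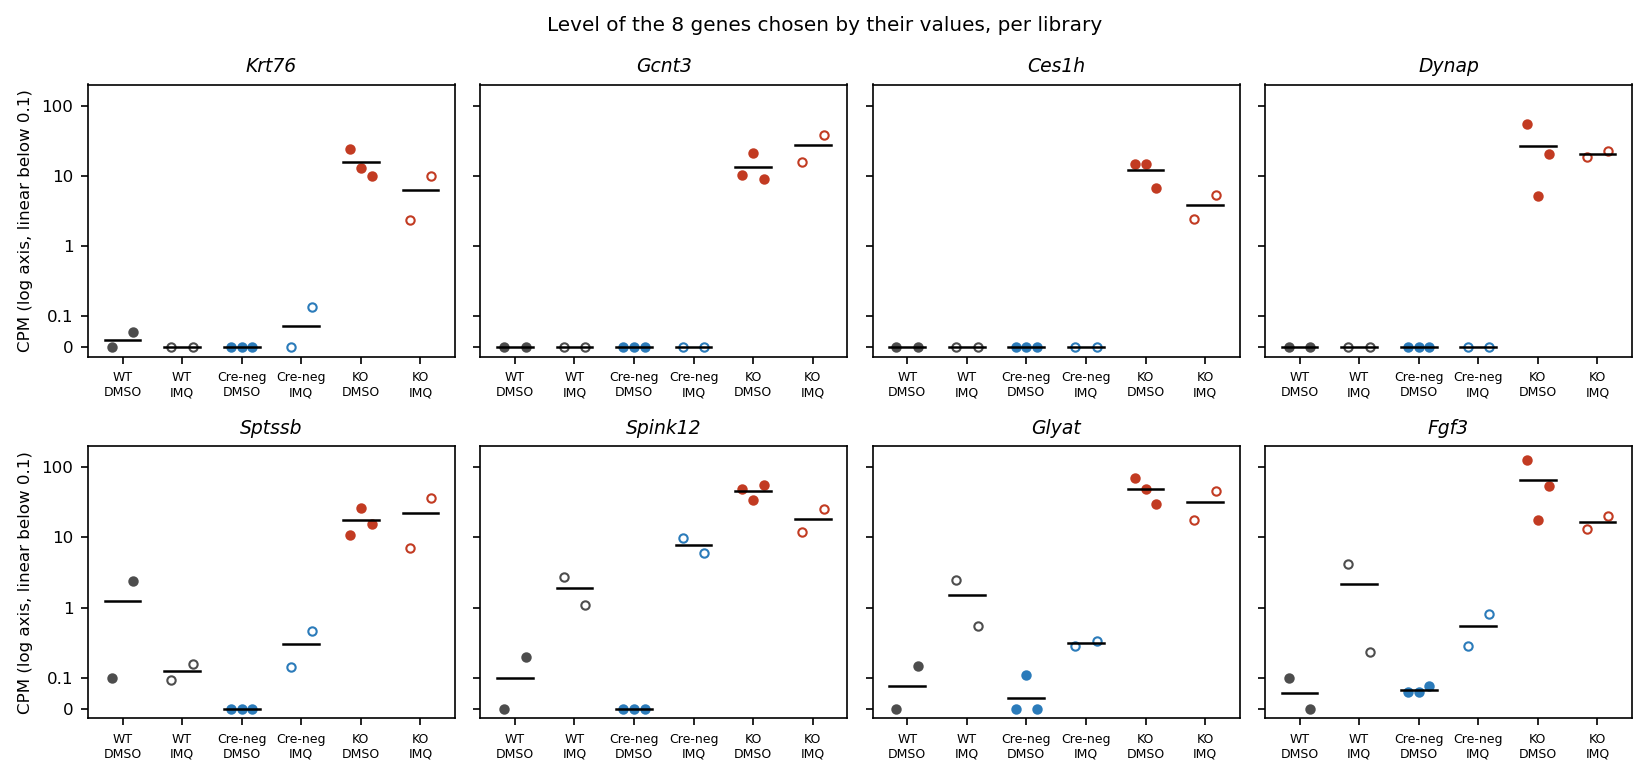
Level of the 8 genes chosen by value in each library (CPM, log axis that is linear below 0.1; dots are libraries and bars are group means; grey wild type, blue Cre-negative, red knockout, filled DMSO, open imiquimod). All 5 knockout libraries lie above all 9 others for each of the 8, with Spink12 closest, at 11.9 CPM in the lowest knockout library against 9.89 CPM in the highest other one.

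For 8 of the 10 genes all 5 knockout libraries stood above all 9 others, where 2.13% of all genes tested did; the choice of genes used 2 of these groups, so nothing is read from this count. Within knockout DMSO skin 5 of the 8 were highest in replicate 1, 2 (Gcnt3 and Sptssb) in replicate 2 and 1 (Spink12) in replicate 3. No share over all genes stands beside these counts, so nothing is read from them. Replicate 1 had the lowest total count of all libraries (5552954) and 17.46% of its counts on Rn18s-rs5. The part of depth and ribosomal share in these levels was not tested. The span over the 3 libraries was 10.5-fold for Dynap, 7.04-fold for Fgf3 and 1.67-fold for Spink12. In knockout imiquimod skin all 8 were higher in replicate 2 than in replicate 1, as were 46.0% of all genes tested, and the summed CPM of 10 keratinocyte markers was 13500 and 8133 in those libraries; its part in the difference was not tested.

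The comparison that the choice did not use asks whether the genes also stood higher in knockout than in Cre-negative skin when both had imiquimod. Of the 10, 7 were higher at an adjusted p under 0.05 and 0 were lower, where 11.6% of all genes tested were called higher and 6.33% lower. Of the 10, 9 were tested. Gcnt3, Ces1h and Dynap, with 0 reads in all 9 other libraries, passed the filter only through knockout libraries. A rise was the only call they could get. Outside knockout skin Krt76 had at most 2 reads in a library, and Sptssb, Glyat and Fgf3 reached at most 48, 53 and 88 reads, each in 1 library. These genes also passed the filter through knockout libraries. The count of 7 and the p-values of the 7 genes are therefore a description. The same holds when the groups that chose the genes are left out, where all 7 passed through knockout imiquimod skin. Krt76 rose by a log2 difference of 6.00 ± 1.08 (SE; adjusted p = 0.0047, edgeR's quasi-likelihood test, as for the other values here). Sptssb rose by 5.95 ± 1.18 (adjusted p = 0.0061), Glyat by 6.60 ± 0.92 (adjusted p = 0.00064) and Fgf3 by 4.78 ± 1.10 (adjusted p = 0.010). Gcnt3, Ces1h and Dynap rose from 0 reads, to means at least 198-fold, 28.2-fold and 149.9-fold above the Cre-negative floor (adjusted p = 0.00083, 0.0034 and 0.0049).

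Spink12 and Krt4 were not called in this comparison. Spink12 was 2.34-fold higher by mean level, with a log2 difference of 1.24 ± 0.56 (adjusted p = 0.16), and Cre-negative imiquimod skin was where it had reads. The Krt4 difference was -1.22 ± 0.99 (adjusted p = 0.44). Without Cre-negative imiquimod replicate 1 the count of genes called higher was 5, as Fgf3 (adjusted p = 0.081) and Sptssb (adjusted p = 0.055) lost the call, and without replicate 2 it was 6, as Fgf3 did (adjusted p = 0.063). With limma's voom and quality weights Fgf3 also lost it (adjusted p = 0.059), and without the 2 libraries of high ribosomal share the count was still 7.

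In wild-type skin Spink12, Glyat and Fgf3 passed the test for a rise with imiquimod and none of the 10 passed for a fall, where 9.59% of all genes tested rose and 11.8% fell. Most of the 9 tested passed the filter through the knockout libraries, so nothing is read from this count: with only the 2 groups compared, 2 members were tested and Spink12 was called. Spink12 rose by a log2 difference of 3.84 ± 0.83 (adjusted p = 0.0086), Glyat by 3.93 ± 1.04 (adjusted p = 0.018) and Fgf3 by 5.75 ± 1.59 (adjusted p = 0.022). The wild-type imiquimod means of 1.89, 1.52 and 2.19 CPM stayed below the lowest knockout library of each gene. Gcnt3, Ces1h and Dynap had 0 reads in both groups, and Krt76 had 1 read in all. Sptssb differed by -3.41 ± 1.28 (adjusted p = 0.077), and the 0.10 CPM of wild-type DMSO replicate 1 lay within the imiquimod range. Without the 48 reads of wild-type DMSO replicate 2 the Sptssb difference was 0.23 (adjusted p = 0.96). It passed the threshold with the replicate number as a block (adjusted p = 0.034), with library size alone (0.049), with no filter (0.00013) and without wild-type DMSO replicate 1 (0.037), 4 of 15 alternatives.

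These calls rested on single libraries. Without wild-type imiquimod replicate 1 none of the 3 was called (adjusted p = 0.082 for Spink12, 0.26 for Glyat and 0.49 for Fgf3). Without either wild-type DMSO library Spink12 alone was called higher, and voom with quality weights also left only Spink12.

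Between Cre-negative and wild-type skin, both with imiquimod, no member was called, and of all genes tested 0.0% were called higher and 0.0% lower by edgeR's quasi-likelihood test. At an unadjusted p under 0.05 there were 2747 genes, DESeq2 called 551 and voom 0. Spink12 was higher in both Cre-negative libraries (log2 difference 2.02 ± 0.59, adjusted p = 0.17; DESeq2 adjusted p = 0.027), and Glyat differed by -2.28 ± 0.92 (adjusted p = 0.24). The 2 groups differ in sex, so sex and the floxed genotype cannot be told apart here.

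**Figure D3:**
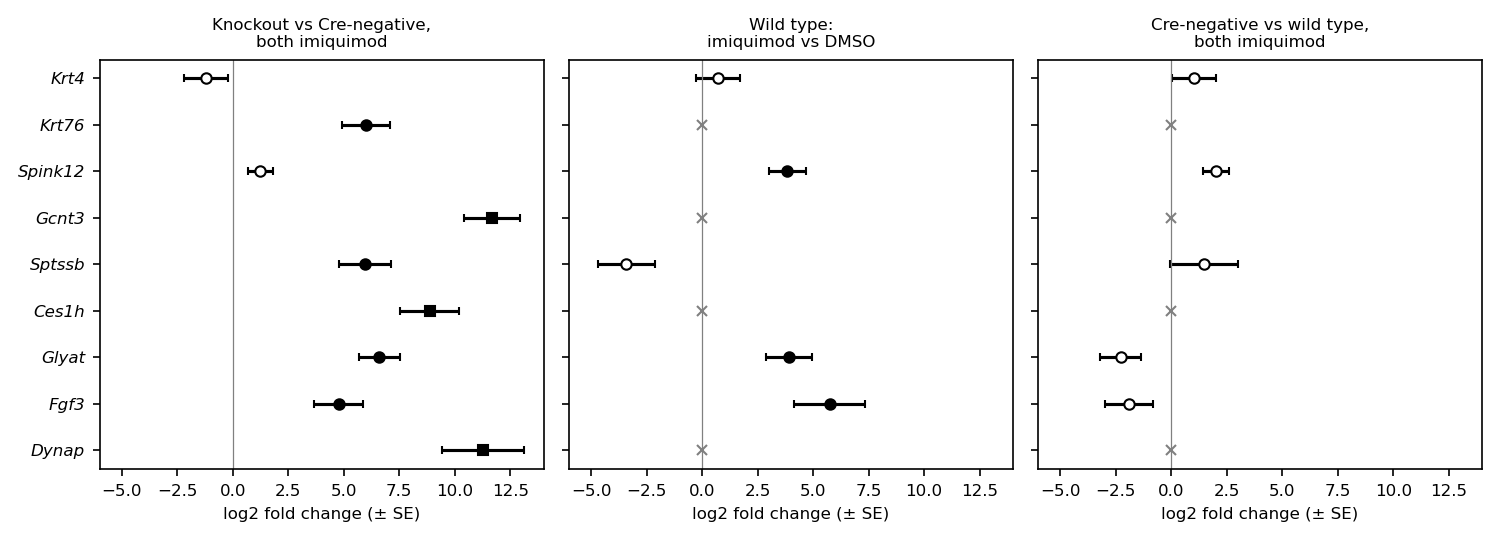
Log2 fold change ± SE of the 9 tested genes in the 3 comparisons that the choice of genes did not use (filled symbols, adjusted p under 0.05; squares, 0 reads in the second group, where the fitted value depends on the prior count; crosses, both groups at or under 3 reads, no fold). Of the 9, 7 are filled on the left, 3 (Spink12, Glyat and Fgf3) in the middle and none on the right.

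Other genes of oral and oesophageal squamous epithelium often rose in knockout skin with DMSO; whether the knockout difference itself changed with imiquimod was not tested. Of the 19 tested that are not among the 10, 12 were higher and 2 lower in knockout than in Cre-negative skin with DMSO, where 14% of all genes tested were called higher and 15.7% lower, and their median log2 difference was 2.65 against -0.06 over all genes. With imiquimod on both sides 3 rose and 3 fell, with a median of -0.22 against 0.02. Imiquimod alone in wild-type skin raised 8 of the 19 and lowered 1 (median 2.11 against -0.09); with library size alone 6 rose and 4 fell, and without wild-type DMSO replicate 2 or wild-type imiquimod replicate 1 5 rose. Mal, a membrane raft protein of apical transport, had the largest difference of those named: it was at 142 and 319 CPM in knockout imiquimod against 0.403 and 1.58 CPM in Cre-negative imiquimod skin (log2 difference 8.02 ± 0.67, adjusted p = 6.8e-05). Cnfn, a cornified envelope protein, rose with DMSO (2.02 ± 0.31, adjusted p = 0.00041) and fell with imiquimod (-2.10 ± 0.38, adjusted p = 0.0028). Tmprss11a, a transmembrane serine protease, did likewise (4.98 ± 0.82 and -2.48 ± 0.66, adjusted p = 0.00069 and 0.020). Ecm1 rose with imiquimod (2.90 ± 0.55, adjusted p = 0.0037) and was not called with DMSO (0.27 ± 0.42, adjusted p = 0.66), by the same edgeR test.

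The list counts that follow are for knockout against Cre-negative skin with imiquimod on both sides, unless DMSO is named. Over all genes tested 11.6% were called higher and 6.33% lower with imiquimod, and 14% and 15.7% with DMSO. Several of these small counts lie near those shares. Among 4 other keratins of single-layered epithelia tested, Krt18 alone rose with imiquimod on both sides. It went from 0.134 and 0.143 CPM to 14.7 and 20.4 CPM (log2 difference 6.91 ± 0.92, adjusted p = 0.00047). Krt8, its partner, did not pass the filter and was not tested. Of 18 mucin and O-glycan genes 4 rose and 2 fell; those named were St3gal1 (2.80 ± 0.46, adjusted p = 0.0016) and Gcnt2 (1.73 ± 0.31, adjusted p = 0.0025), which add sialic acid and I-branches, Galnt4 (1.11 ± 0.31, adjusted p = 0.024), an initiating enzyme, and Spdef, a transcription factor of goblet cells, which fell (-3.19 ± 0.85, adjusted p = 0.026). Galnt4 kept its call in 10 and Spdef in 12 of 16 alternatives. Gcnt1, another core 2 enzyme, was chosen after its values were seen: it differed by 1.36 ± 0.50 (adjusted p = 0.077). With DMSO on both sides 5 of the 18 rose and 1 fell by the same edgeR test. There Spdef rose in knockout skin (5.16 ± 1.43, adjusted p = 0.021, kept in 13 of 15 alternatives). Spdef also rose with imiquimod in wild-type skin (8.89 ± 1.39, adjusted p = 0.0021, kept in 16 of 16). Both rises were from groups with 0 reads, where a fall could not be seen.

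Beside Sptssb, other sphingolipid genes moved in both directions: 3 of 18 rose and 5 fell with imiquimod on both sides. Sptlc3, a catalytic subunit of the same transferase, fell (-3.90 ± 0.53, adjusted p = 0.00050), as did Sptlc1 (-1.34 ± 0.34, adjusted p = 0.016, kept in 11 of 16 alternatives) and Cers4, a ceramide synthase (-3.67 ± 0.57, adjusted p = 0.0012), while Sgms2, a sphingomyelin synthase, rose (4.23 ± 0.56, adjusted p = 0.00046). Sptlc2 and Sptssa, the partners of Sptssb in the enzyme, were named after their values were seen: they differed by -0.90 ± 0.28 (adjusted p = 0.041, kept in 5 of 16 alternatives) and -1.89 ± 0.69 (adjusted p = 0.074). With DMSO on both sides 6 of the 18 rose and 5 fell by the same edgeR test. There Sptlc2 rose (1.03 ± 0.23, adjusted p = 0.0048, kept in 15 of 16 alternatives), as did Sptlc1 (0.86 ± 0.27, adjusted p = 0.031, kept in 9 of 16). Sptlc3 fell there too (-2.06 ± 0.39, adjusted p = 0.0019), and Sptssa was not called (-1.13 ± 0.55, adjusted p = 0.14).

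For the other gene families, with imiquimod on both sides, 2 of 6 Spink genes rose (Spink6, kept in 9 of 14 alternatives, and Spink2, in 10 of 16). Of 7 carboxylesterases 0 rose and 1 (Ces1d, kept in 7 of 15) fell. With DMSO 4 of these 7 rose and 2 fell. Ces1b had reads in knockout skin only, so a rise was the only call it could get (DMSO 6.89 ± 1.74, adjusted p = 0.018). Of 2 glycine acyl genes, Acsm3 was not called with imiquimod. Acsm1 had 0 reads in both imiquimod groups and could not be called. With DMSO both fell (Acsm1 -6.45 ± 1.28, adjusted p = 0.0049, and Acsm3 -7.78 ± 1.03, adjusted p = 0.00028). Among 17 FGF ligands, receptors and feedback genes 4 rose and 1 fell with imiquimod on both sides. Spry2, a feedback inhibitor of FGF signalling, rose by 2.08 ± 0.29 (adjusted p = 0.00068), Fgfr1 by 2.02 ± 0.45 (adjusted p = 0.0080), and the ligands Fgf10 and Fgf7 by 2.06 ± 0.60 and 2.40 ± 0.70 (adjusted p = 0.031 for both), of which Fgf10 kept its call in 8 and Fgf7 in 12 of 16 alternatives. Fgfr2, the epithelial receptor, was chosen after its values were seen: it fell in knockout DMSO skin (-2.56 ± 0.51, adjusted p = 0.0025) and in wild-type imiquimod skin (-3.09 ± 0.64, adjusted p = 0.0053) and differed by -0.80 ± 0.61 (adjusted p = 0.40) in knockout against Cre-negative imiquimod skin.

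**Figure D4:**
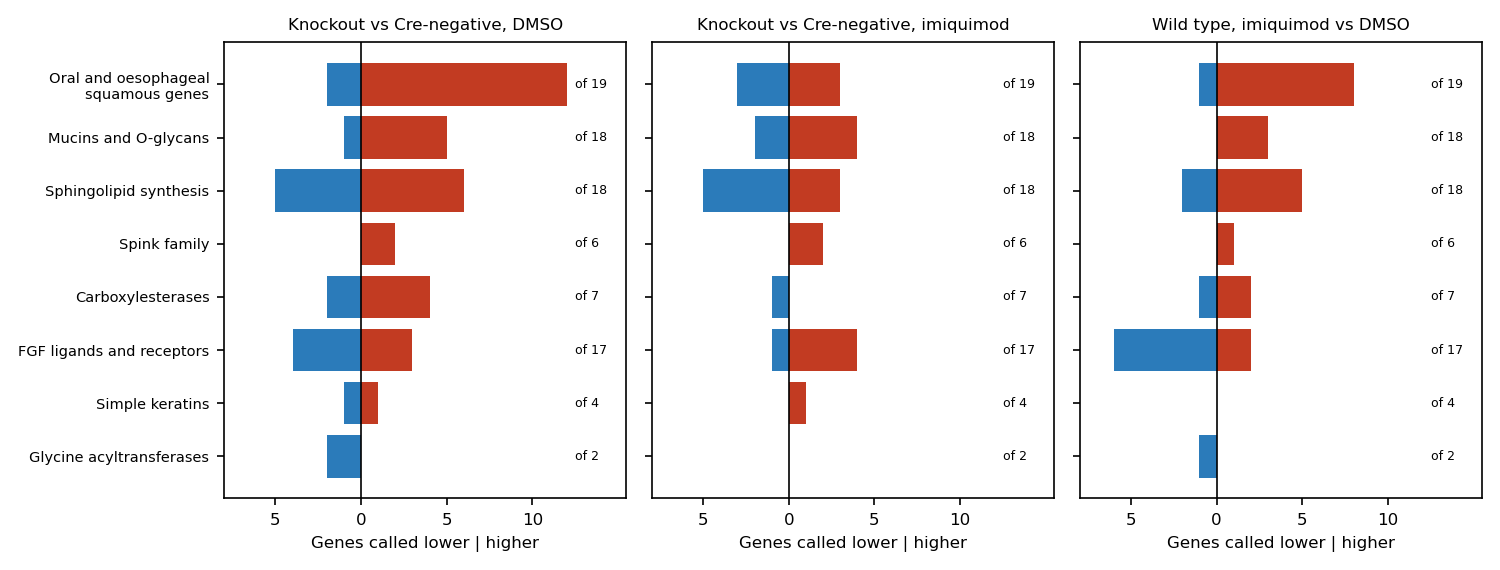
Number of genes called higher (red, to the right) and lower (blue, to the left) in lists related to the 10 genes, members left out, with the number tested at the right edge. The oral and oesophageal list has 12 of 19 called higher in knockout skin with DMSO and 3 higher and 3 lower with imiquimod.

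Of 36 tested genes nearest to the 10, 1 (Spink6) rose and 7 fell in knockout against Cre-negative skin with imiquimod, where 11.6% of all genes tested rose and 6.33% fell, and their median log2 difference was -0.36 against 0.02. With DMSO 2 rose and 12 fell, where 14% of all genes rose and 15.7% fell. In the keratin cluster of chromosome 15, Krt1, an epidermal keratin, fell (log2 difference -5.48 ± 0.82, adjusted p = 0.00090), Krt77 (-3.56 ± 0.91, adjusted p = 0.017), Krt79 (-5.96 ± 0.60, adjusted p = 0.00012) and Krt78 (-2.78 ± 0.78, adjusted p = 0.026) fell with it, while Krt76 rose. Krt77 and Krt78 each kept the call in 10 of 16 alternatives, and Krt1 and Krt79 in all 16.

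**Figure D5:**
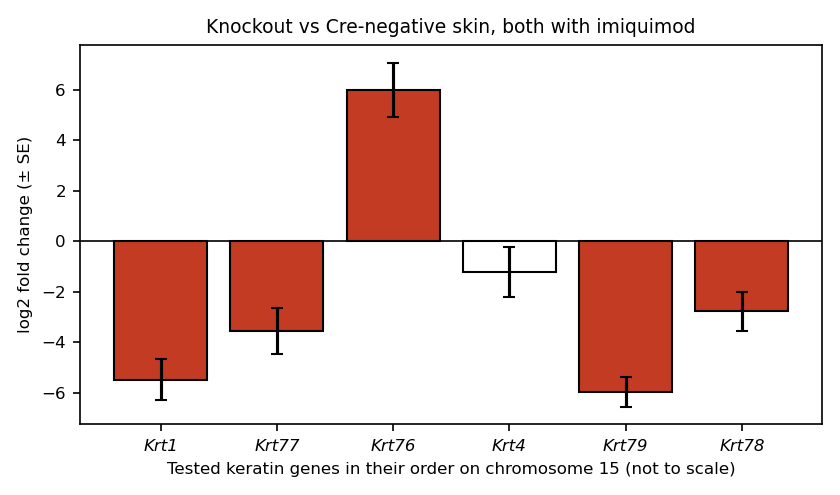
Log2 fold change ± SE of the tested keratins around Krt76 on chromosome 15, in their order, knockout against Cre-negative skin with imiquimod on both sides (red, adjusted p under 0.05; white, not called). Krt76 rose by 6.00 between Krt77 and Krt4, while Krt1, Krt77, Krt79 and Krt78 fell.

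The genes whose centred log2 CPM over the 14 libraries lay closest to the mean profile of the 9 tested members were Shroom1 (root mean square difference 0.423), Afp (0.58), Gsto1 (0.608), Akr1d1 (0.626), Tekt5 (0.649), Srxn1 (0.667), Gss (0.691) and Hmga2 (0.781). Among the members themselves this distance ran from 0.584 for Krt76 to 1.52 for Spink12 and 2.79 for Krt4. The 14 libraries include the DMSO groups that chose 8 of the members. Genes near the profile therefore share the contrast of those groups by the way they were picked, and the levels that follow are a description. Srxn1, which codes for sulfiredoxin, was at 2086 ± 37.8 CPM (SD, n = 3) in knockout DMSO skin against 48.1 ± 1.87 (n = 3) in Cre-negative DMSO skin. Shroom1, an actin-binding protein gene, was at 15.8 ± 9.38 against 0.0182 ± 0.0316 CPM (n = 3 each).

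Markers of other cell types moved in the same comparisons, and their part in the levels of the 10 genes was not tested. Of 10 neutrophil markers 7 rose and 0 fell in knockout against Cre-negative imiquimod skin. The summed CPM did not rise with them, at 54050 to 114100 in knockout and 85960 to 192700 in Cre-negative libraries. These markers therefore do not settle which of the 2 groups held more neutrophils. With DMSO 9 rose, with sums of 17190 to 63360 against 77.1 to 707.8. Wild-type imiquimod skin had neutrophil marker sums of 64090 to 152900. Of 8 sebaceous markers 5 fell and 0 rose, with sums between 130.8 and 134.0 CPM in knockout and between 474.5 and 561.9 CPM in Cre-negative imiquimod skin, and of 10 keratinocyte markers 2 fell and 0 rose (8133 to 13500 against 16790 to 27050 CPM). No muscle marker of 8 was called with imiquimod on both sides, and all 8 fell in knockout DMSO skin.

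Markers of other epithelia were also measured. Of 11 sweat, salivary and mammary gland markers 3 were tested and all 3 rose, namely Krt18, Kcnn4 and Aqp5, with summed CPM of 50.5 to 54.4 in knockout and 1.29 to 2.02 in Cre-negative imiquimod skin; the salivary secretory genes Bpifa2, Prol1 and Dcpp1 were at 0 in every group. Of 8 gut markers 2 were tested and neither was called with imiquimod on both sides. Of these, Fabp2, an intestinal fatty acid binding protein, had 64 reads in knockout DMSO skin, 19 in knockout imiquimod skin and 0 in every other group. It passed the filter only through knockout libraries, so a rise was the only call it could get. Its call as higher in knockout DMSO skin is therefore a description (edgeR adjusted p = 0.0075, kept in 14 of 15 alternatives). DESeq2 did not call it (adjusted p = 0.089). The gut marker sums were at most 2.62 CPM in any library, and Cdx2 and Apoa4 were at 0 in every group. Of 10 liver and kidney markers 1 was tested and was not called; Umod and Kap were at 0 in every group, and the sums were at most 2.23 CPM in knockout libraries. The part of these cell types in the levels of the 10 genes was not tested.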

How the data were processed

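The authors deposited 1 table of unnormalized counts, 1 value per gene in each of 14 QuantSeq forward libraries, which tag the 3′ end of transcripts, per the labels' protocols. Per the submitters' processing notes the tools were STAR, featureCounts and DESeq2, with no versions, and 2 builds (GRCm38, GRCm39) are listed. Positions in the deposited counts table match GRCm39: only 2.7% of 52029 genes shared with a GRCm38 annotation have the same start. The table's gene length column, per the file headers, is summed exon length in bases and was used for no test. How strand and multiply mapped reads were handled is not given in the sources used here. Ces1h and the keratins have near relatives whose reads could be split, so their counts are uncertain to that extent. The labels describe Cre-mediated knockout, while the series' design text speaks of a NEDD8 inhibitor; the labels were followed.

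Genes were filtered with filterByExpr (16027 kept), scaled by TMM and fitted in edgeR 4.0.16 (R 4.3.3) as 1 quasi-likelihood model of 6 group means, two-sided, with Benjamini-Hochberg adjustment over all genes tested and a threshold of 0.05. The value after ± is a standard error computed from the F statistic, or an SD where marked. Folds against a group at 0 used 3 counts, summed over its libraries, as floor; floors and intervals cover counting error only, since PCR copies cannot be told from separate molecules. Nearness of profiles used log2 CPM with a prior count of 2. The genes to name were all members, and up to 4 genes of each list with the smallest p in knockout against Cre-negative imiquimod skin. The nearest 2 tested genes on each side, the 8 nearest profiles and Nedd8 were added. Not all of these are given in the text, and genes named for another reason are marked there. The members, lists and tests were chosen with earlier results of these data known. Comparisons of all-gene calls in knockout against Cre-negative DMSO skin were added after the data were seen and are used for genes that are not members. The fits were tested on simulated data. Alternatives used DESeq2 1.42.0, limma 3.58.1, other scalings and filters, fewer groups, replicate blocks and left-out libraries.

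Replicate numbers are shared across groups in the labels, with no statement that they mark an animal, litter or day. The correlation of deviations of same-numbered libraries was 0.26, 0.102 and 0.166 between knockout and Cre-negative DMSO skin. It was -0.162 between knockout and Cre-negative imiquimod skin, -0.191 between wild-type groups and -0.0633 between Cre-negative and wild-type imiquimod skin. No value for differently numbered libraries stands beside these, so they do not show whether the numbers mark pairs.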

Additional observations from a re-analysis of the deposited data

Results flagged for a closer look

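Spink12 moved in opposite directions with imiquimod in different genotypes. Every knockout imiquimod library was below every knockout DMSO library (means of 18.5 and 46.3 CPM), while every wild-type and every Cre-negative imiquimod library was above every DMSO library of its genotype. Among all genes tested, 18.9% had knockout imiquimod libraries below all knockout DMSO ones. No share over all genes stands beside the wild-type and Cre-negative rises or the opposite directions, so how common they are is not known. All knockout DMSO libraries were female and both knockout imiquimod libraries male, so sex and imiquimod cannot be told apart in the knockout. The difference was not tested, because the knockout and Cre-negative DMSO libraries chose the gene.

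Krt13 showed such opposite directions at 0 to 2 reads per library. Its mean was 0.0 CPM in Cre-negative imiquimod skin and 0.00939 CPM in knockout DMSO skin, both below the 0.0797 CPM of Cre-negative DMSO skin, while knockout imiquimod libraries were above the other knockout and the Cre-negative imiquimod ones. The difference was not tested and rests on the 8 reads of these 4 groups.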

How the results depend on the processing

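Depth and 2 or 3 libraries a group limit these results, and site and animal of each library are not known. The 8 genes whose knockout libraries lay above all others were 8 under every scaling and with each library left out. The 10 genes' directions did not reverse where called.

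In knockout against Cre-negative imiquimod skin 2866 genes were called; voom with quality weights called 1790, and leaving out 1 library gave 796 to 2360, with 5 to 7 members higher. Without both libraries of high ribosomal share 1957 were called. In wild-type skin 3433 genes were called with imiquimod; only the groups compared gave 1863, only the 4 groups that the choice did not use 2203, and leaving out 1 library 1092 to 3531. Members higher there were 3, but 1 with voom, 1 with only the groups compared (where 2 passed the filter), and 0 to 3 with 1 library left out. Between Cre-negative and wild-type imiquimod skin 0 genes were called, but DESeq2 called 551, no filter 763, only the groups compared 18, only the 4 groups 5, and leaving out 1 library 0 to 557, the last without wild-type imiquimod replicate 2; DESeq2 and no filter each called 1 member (Spink12) higher there, and no filter called Glyat and Fgf3 lower. In knockout against Cre-negative DMSO skin 4752 were called, 7297 with voom, and 3123 to 4294 with 1 library left out.

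With the replicate number as a block the counts of calls were 2781, 3415, 9 and 4692 in that order, and members higher stayed 7, 3 and 0; Sptssb in wild-type skin was the 1 member whose call changed. Crossing the numbers gave 3270 calls between knockout and Cre-negative imiquimod skin and 2604 between wild-type groups. With library size alone the share of calls that were higher went from 64.6% to 83.1% in knockout against Cre-negative imiquimod skin, from 44.8% to 13.2% in wild-type skin and from 47.2% to 25.9% in knockout against Cre-negative DMSO skin, with medians over all genes of 0.42, -0.76 and -0.41 (log2), and the counts of members higher were the same. Without the 2 ribosome-rich libraries the first share was 54.3%.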
